A study of Mus musculus with 6 samples.

Results

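Killer lectin receptors are surface proteins best known from natural killer (NK) cells, and 7 genes of this family, with Nkg7, Cd160 and Fcer1g, were followed in mouse regulatory T (Treg) cells cultured with or without Sora (sorafenib, which blocks several kinases and is given for liver cancer). The 10 genes, of 22939 in the table, were taken by gene symbol: Klrc1, Klrc2, Klrd1, Klrg1, Klrk1, Klrb1c, Klrb1f, Nkg7, Cd160 and Fcer1g. They were chosen with their control and Sora values known. Their differences between the groups are therefore a description and carry no test. RNA was sequenced from 6 libraries, 3 of ctrl-Treg cells and 3 of Sora-Treg cells. Per the study's methods, naive CD4+ T cells from spleen and lymph nodes of Foxp3GFP knock-in animals (C57BL/6J background) were differentiated with antibodies to CD3 and CD28, TGF-β1 and antibodies that block IFN-γ and IL4, and the GFP+ cells were sorted. Both groups therefore carried the Foxp3GFP reporter and received that cocktail, and only the Sora-Treg cells received Sora. The labels give neither the Sora concentration of these libraries nor how many mice or cultures a library holds, so the spread between libraries may be technical.

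Killer lectin-like receptors sit in the NK gene complex and pass on activating or inhibitory signals when they meet their ligands on other cells. Klrc1 (NKG2A, inhibitory) and Klrc2 (NKG2C, activating) each pair with Klrd1 (CD94) and bind the nonclassical MHC molecule that H2-T23 encodes. Klrg1 binds cadherins and marks antigen-experienced effector T cells and a subset of effector Treg cells, and Nkg7 is a membrane protein of cytotoxic granules.

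Klrc1, Klrd1 and Klrg1 were higher in Sora-Treg than in ctrl-Treg cells, and Nkg7, Fcer1g and Cd160 were lower. The differences were 7.52-fold for Klrc1, 3.07-fold for Klrd1 and 2.08-fold for Klrg1, and in the other direction 4.89-fold for Nkg7, 2.55-fold for Fcer1g and 1.77-fold for Cd160. Klrb1f showed little difference. Klrc2 and Klrk1 were too low for the fit, with at most 29 counts in any library, and Klrb1c was at or near 0 throughout. Klrc2 was called higher with DESeq2 and with genes kept at 1 or more counts. The same held without control replicate 2, control replicate 3 or Sora-Treg replicate 1. It entered the fit but was not called without control replicate 1, nor by limma on any FPKM scale. The folds above are ratios of mean CPM (counts scaled to a common library total) after TMM scaling, which adjusts library sizes for composition. Of the 10 genes, 7 passed the filter on low counts. Among those 7, edgeR called 3 higher and 3 lower at an adjusted p under 0.05 and left 1 uncalled. DEGs, differentially expressed genes with an adjusted p under 0.05 and more than a 2-fold change, made up 3 of the 3 higher and 2 of the 3 lower genes.

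The background of that contrast was broad. Of 13463 genes tested, 59.6% were called in either direction, 29.7% higher and 29.9% lower in Sora-Treg cells. The DEG rule called 6.3% higher and 4.97% lower. Since the members were picked on this contrast, nothing is read from their counts against these shares. With libraries scaled by their totals alone, the split of calls moved from 3994 higher and 4028 lower to 2862 higher and 5614 lower, and the median log2 fold change of all tested genes shifted by -0.12. The directions of the 7 fitted members did not flip under that scaling.

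**Figure D1:**
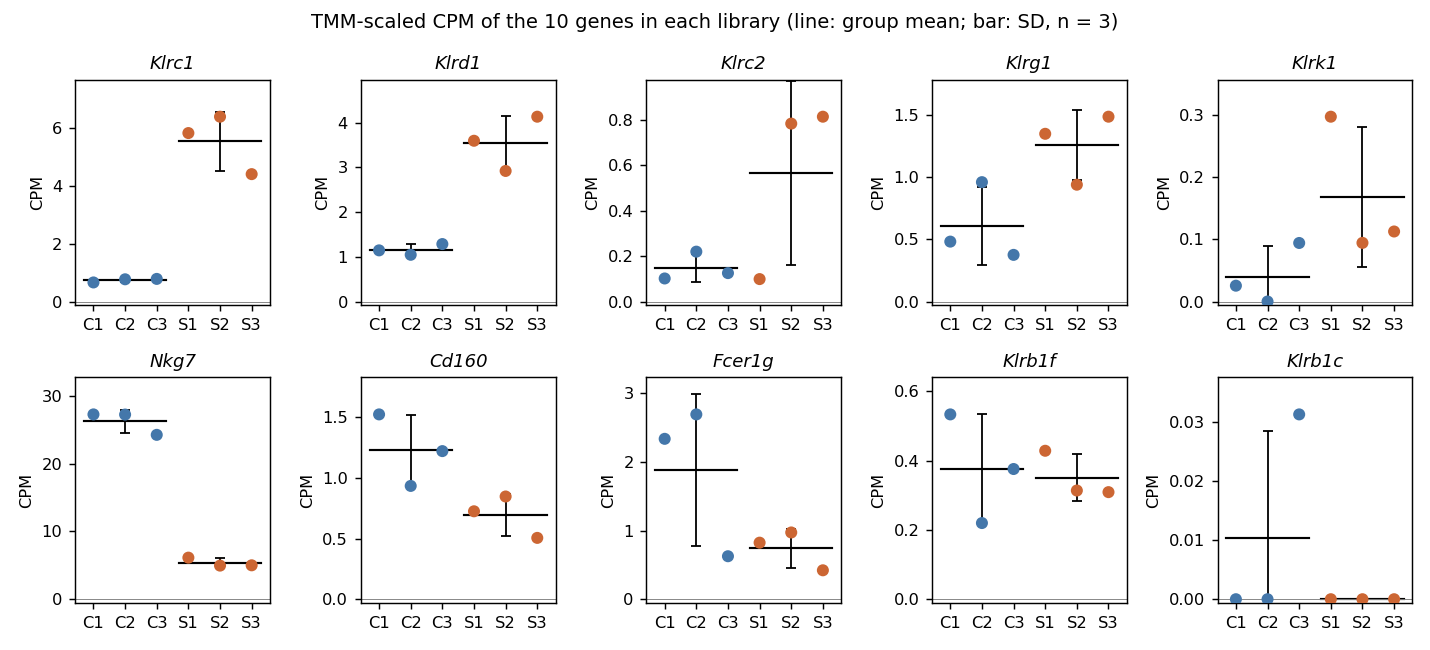
TMM-scaled CPM (vertical axes, each from 0) of the 10 genes in ctrl-Treg libraries C1 to C3 (blue) and Sora-Treg libraries S1 to S3 (orange), with group means and SD over 3 libraries. The groups stand apart for Klrc1, Klrd1 and Nkg7, while Klrc2 in S1 lies below all 3 controls and Fcer1g in C3 lies among the Sora-Treg values.

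The libraries held between 30727686 and 37717324 counts each, at which 3 counts correspond to between 0.0795 and 0.0976 CPM. That floor covers counting error only. Markers of the labelled cell type were present, since Cd3e, Cd4, Foxp3, Il2ra, Ctla4 and Ikzf2 summed to between 3605 and 3657 CPM in ctrl-Treg and between 6301 and 6431 CPM in Sora-Treg libraries. NK cell markers were low. Klrb1c, which carries the NK1.1 epitope, and Klra7 had at most 1 count in any library. All 8 NK markers together gave 4.54 to 6.10 CPM in ctrl-Treg and 6.69 to 7.87 CPM in Sora-Treg libraries, without overlap. Of that sum Eomes contributed 2.21 CPM in ctrl-Treg and 4.53 CPM in Sora-Treg cells on average, and of the 4 markers that could be tested 1 was called higher and 1 lower. Cd8a and Cd8b1 summed to 13.2 to 15.1 CPM and 12.6 to 13.8 CPM, and Cd8a was called lower (log2 fold change -0.71 ± 0.22, SE, edgeR adjusted p = 0.00872). The B cell markers Cd79a, Ms4a1 and Pax5 summed to 1.13 to 1.95 CPM in ctrl-Treg and 0.220 to 0.365 CPM in Sora-Treg libraries. The part of other cells in the receptor values was not tested. In bulk RNA, fewer cells of a type and less RNA per cell cannot be told apart.

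Klrd1 encodes CD94, the chain that NKG2A and NKG2C need to reach the surface. Raw counts were 45, 38 and 41 among the controls and 109, 93 and 147 after Sora. The lowest Sora-Treg library thus held more than the highest control. Mean levels were 1.16 ± 0.12 CPM and 3.55 ± 0.61 CPM (SD, n = 3), and the fitted log2 fold change was 1.62 ± 0.23 (SE).

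Klrc1, the inhibitory partner, had 26, 28 and 25 counts in the ctrl-Treg and 177, 204 and 157 counts in the Sora-Treg libraries. It was 0.738 ± 0.067 CPM in ctrl-Treg and 5.55 ± 1.02 CPM after Sora (SD, n = 3), with a fitted log2 fold change of 2.91 ± 0.22 (SE), the largest among the fitted members. The 3 controls were nearly alike, and every Sora-Treg library was several-fold above them. Relative to Klrd1 and per length (FPKM, fragments per kilobase scaled to library total), Klrc1 stood at 0.397 ± 0.052 of the Klrd1 level in ctrl-Treg and at 1.01 ± 0.35 in Sora-Treg cells. The individual ratios were 0.357, 0.456 and 0.377 against 1.005, 1.36 and 0.661, so no Sora-Treg library fell within the control range.

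Klrc2, the activating partner, did not follow Klrc1 in every library. Its counts were 4, 8 and 4 in ctrl-Treg and 3, 25 and 29 in Sora-Treg libraries. Sora-Treg replicate 1 held fewer Klrc2 counts than any control, although its Klrc1 count was 177. The mean was 0.149 ± 0.063 CPM against 0.566 ± 0.405 CPM (SD, n = 3), 3.80-fold higher in Sora-Treg cells. Without Sora-Treg replicate 1, left out after seeing the data, the difference was 5.37-fold. Both folds rest on a control sum of 16 counts. Klrc1 made up most of the Klrc1 and Klrc2 counts in all 6 libraries. Its share was 86.7% (Wilson 95% interval 70.3 to 94.7), 77.8% (61.9 to 88.3) and 86.2% (69.4 to 94.5) in ctrl-Treg libraries. In the Sora-Treg libraries it was 98.3% (95.2 to 99.4), 89.1% (84.4 to 92.5) and 84.4% (78.5 to 88.9). These intervals cover counting error only, and Klrc2 counts spread more widely than that among the Sora-Treg libraries. The shares are of counts, not of transcripts, since counts and FPKM imply 2032 bases for Klrc1 and 1025 bases for Klrc2. Per length the Klrc1 shares are lower, at a mean FPKM of 0.377 against 0.151 for Klrc2 in ctrl-Treg cells. In Sora-Treg cells the means were 2.62 and 0.530.

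Between Klrk1 and Klrc2 lies Klrc3 (NKG2E), a further partner of CD94 that was not among the 10 genes and was named after its values had been seen. It had 5, 2 and 0 counts in ctrl-Treg and 18, 51 and 35 counts in Sora-Treg libraries (log2 fold change 3.97 ± 0.62, SE, edgeR adjusted p = 7.96e-06). Klrd1, Klrk1, Klrc3, Klrc2 and Klrc1 are neighbours in that order on mouse chromosome 6, with Klre1 before and Klri1 after them. Klre1 had 1, 1 and 1 counts against 1, 7 and 3.

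**Figure D2:**
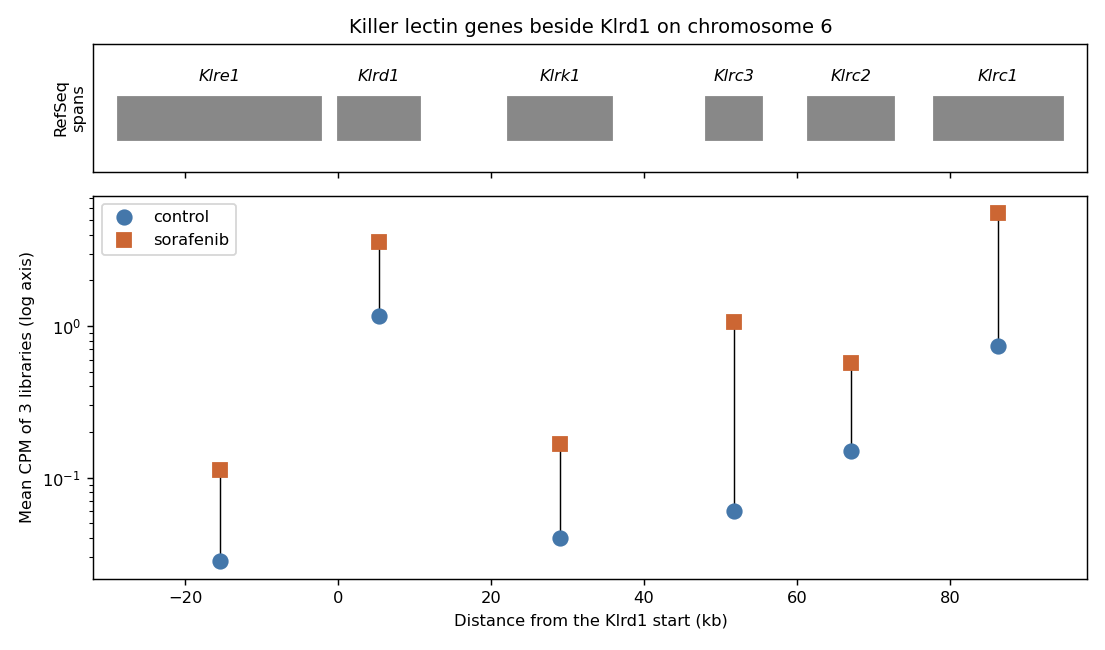
Spans of Klre1, Klrd1, Klrk1, Klrc3, Klrc2 and Klrc1 in RefSeq (top), by distance from the Klrd1 start in kb, and mean CPM of 3 libraries per group on a log axis (bottom). The Sora-Treg mean lies above the ctrl-Treg mean at all 6 genes, but Klre1 and Klrk1 rest on at most 9 counts in a library.

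The NKG2 genes Klrc1, Klrc2 and Klrc3 share sequence, which matters for reads counted per gene. In GENCODE M21 transcripts, 38.6% of the 50-base stretches of Klrc1 also occur in another gene, and 94.8% of those shared stretches are in Klrc2. At 100 bases the shared part of Klrc1 was 14.6%. For Klrc2 the shares were 16.3% and 7.09%, and for Klrc3 36.3% and 16.0%. Each share pools all listed transcripts of a gene, which need not match the length its counts cover. For Klrc2 the 50-base share rests on 6003 stretches, 976 of them shared, whereas its counts and FPKM imply a length of 1025 bases. The shares therefore do not rank the 3 genes by how far their reads were shared. Klrd1, Klrg1, Klrk1, Klrb1f, Nkg7 and Fcer1g shared none. Reads could therefore have been split among the 3 NKG2 genes. Summed, these genes had 35, 38 and 29 counts in ctrl-Treg and 198, 280 and 221 counts in Sora-Treg libraries, with a log2 fold change of 2.91 ± 0.19 (SE), a sum chosen after seeing the data.

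The start regions of these neighbours are shown to set the 3 NKG2 genes side by side. Each line gives 250 bases before and 10 bases from the transcription start, from RefSeq on GRCm38.p6, 5′ to 3′. Capitals mark letters of the motifs T-box TCACAC, RUNX TGTGGTT, NFAT GGAAAA and AP-1 TGANTCA, searched on both strands, with N any base. Klrc1 lies at chr6:129678964-129679223, minus strand, Klrc2 (the second of its 2 listed starts) at chr6:129660547-129660806, minus strand, and Klrc3 at chr6:129643279-129643538, minus strand.
Klrc1: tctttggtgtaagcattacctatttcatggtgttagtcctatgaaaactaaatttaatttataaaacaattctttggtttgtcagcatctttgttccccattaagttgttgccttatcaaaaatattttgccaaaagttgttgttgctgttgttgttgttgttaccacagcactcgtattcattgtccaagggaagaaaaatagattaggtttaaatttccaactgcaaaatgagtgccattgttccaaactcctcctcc
Klrc2: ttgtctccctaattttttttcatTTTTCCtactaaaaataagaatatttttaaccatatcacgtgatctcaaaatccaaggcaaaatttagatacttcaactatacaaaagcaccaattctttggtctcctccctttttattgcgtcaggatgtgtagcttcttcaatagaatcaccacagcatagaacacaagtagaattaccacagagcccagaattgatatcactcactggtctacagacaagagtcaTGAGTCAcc
Klrc3: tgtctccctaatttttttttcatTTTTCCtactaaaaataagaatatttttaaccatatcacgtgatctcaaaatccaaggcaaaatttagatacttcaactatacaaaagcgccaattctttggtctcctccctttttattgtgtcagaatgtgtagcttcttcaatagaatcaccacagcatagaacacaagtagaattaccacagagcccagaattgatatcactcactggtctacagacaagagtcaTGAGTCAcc
Over full windows of 300 bases, Klrc2 and Klrc3 were identical at 296 of 299 aligned bases (99.0%). Klrc1 matched Klrc2 at 60.5% and Klrc3 at 61.5% of aligned bases. The 48 pairs of windows that are not between 2 of Klrc1, Klrc2 and Klrc3 spanned 50.6% to 66.9%. Klrc2 and Klrc3 each held 1 NFAT and 1 AP-1 motif, found in 23.4% and 7.81% of 32851 promoters of that length. Klrc1 held none of the 4 motifs. The Klrc1 window lies within the RefSeq span of the gene, which ends at 129682852, while the Klrc2 and Klrc3 windows reach across the ends of theirs. The windows may therefore set unlike starts side by side. A match describes letters in a window and is not a binding site.

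Klrg1 is an inhibitory receptor for E-cadherin. Its counts were 19, 35 and 12 in ctrl-Treg and 41, 30 and 53 in Sora-Treg libraries. Control replicate 2 and Sora-Treg replicate 2 overlapped, at 0.962 and 0.941 CPM. The means were 0.607 ± 0.312 CPM and 1.26 ± 0.29 CPM (SD, n = 3), and the log2 fold change was 1.05 ± 0.38 (SE). Klrg1 lost its call without control replicate 1 (0.90), control replicate 3 (0.81) or Sora-Treg replicate 3 (0.91). It stands apart on chromosome 6, between Mug2 and M6pr rather than beside Klrd1.

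Klrk1 (NKG2D), an activating receptor for stress-induced ligands, had 1, 0 and 3 counts in ctrl-Treg and 9, 3 and 4 counts in Sora-Treg libraries. The control sum of 4 counts was close to the floor of 3 counts, and no fold is given. Klrb1c had 0, 0 and 1 counts in ctrl-Treg libraries and 0 in each Sora-Treg library. Klrb1f, a further member of the NKR-P1 receptors, had 21, 8 and 12 counts against 13, 10 and 11. All its Sora-Treg libraries lay within the control range, at a log2 fold change of -0.12 ± 0.48 (SE).

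Per length, Nkg7 had the highest level of the 10 genes in both groups. It had 1073, 991 and 774 counts in ctrl-Treg and 186, 158 and 178 counts in Sora-Treg libraries. Even the lowest control held several times the highest Sora-Treg count. Means were 26.2 ± 1.7 CPM and 5.36 ± 0.67 CPM (SD, n = 3), with a log2 fold change of -2.30 ± 0.09 (SE), the smallest error among the fitted members. Nkg7 lies on chromosome 7, away from the lectin genes. Its start region is shown because it holds a T-box motif, in capitals, a motif found in 14.5% of promoters. It spans chr7:43436888-43437147, plus strand on the same build.
Nkg7: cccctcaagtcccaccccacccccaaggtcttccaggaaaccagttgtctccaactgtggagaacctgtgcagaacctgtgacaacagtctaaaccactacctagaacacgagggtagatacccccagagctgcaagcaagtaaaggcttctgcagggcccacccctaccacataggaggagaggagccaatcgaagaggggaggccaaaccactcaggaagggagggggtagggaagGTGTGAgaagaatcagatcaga
The genes whose profile over the 6 libraries was nearest to that of Nkg7, by root mean square difference of centred log2 CPM, were Rhod (0.0771), Aldh1l2 (0.126) and Cth (0.130).

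Cd160, a receptor that binds Tnfrsf14 (HVEM) and classical MHC class I molecules, had 60, 34 and 39 counts in ctrl-Treg and 22, 27 and 18 counts in Sora-Treg libraries. The groups did not overlap, but control replicate 2 came close to Sora-Treg replicate 2. Means were 1.23 ± 0.30 CPM and 0.693 ± 0.173 CPM (SD, n = 3), and the fitted log2 fold change was -0.83 ± 0.35 (SE). Its call was lost with DESeq2 (-0.83), with the replicate number as a block (-0.82) and without control replicate 1 (-0.63), control replicate 3 (-0.84), Sora-Treg replicate 1 (-0.86) or Sora-Treg replicate 3 (-0.64). Cd160 overlaps Pdzk1 on the opposite strand in GENCODE M21, and no library held more than 21 Pdzk1 counts.

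**Figure D3:**
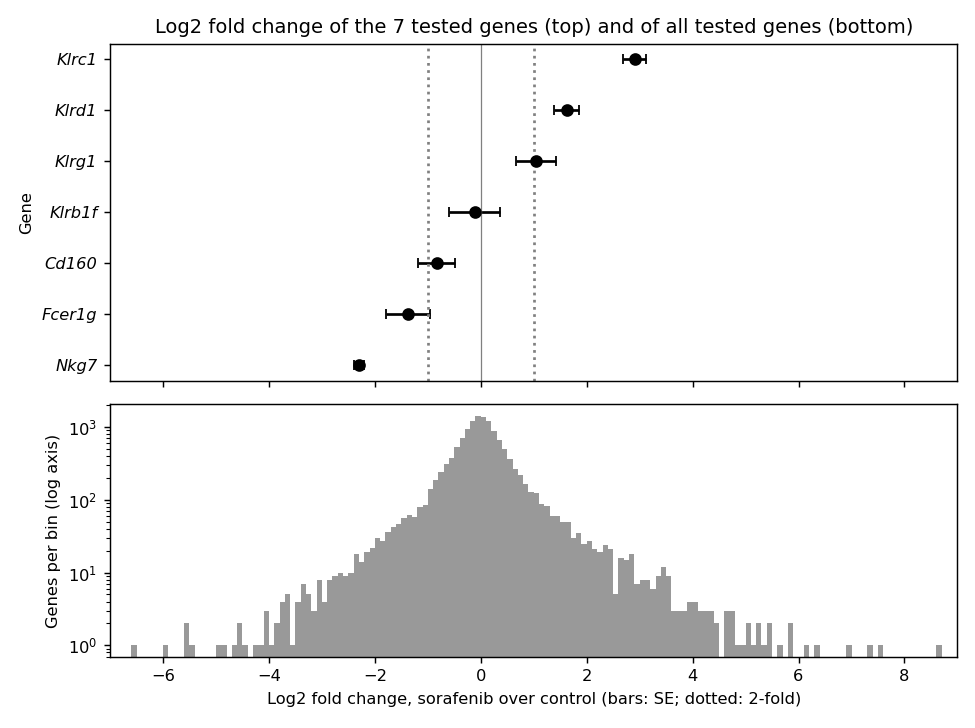
Fitted log2 fold change, Sora-Treg over ctrl-Treg, with SE bars for the 7 tested members (top; dotted lines mark 2-fold) and the distribution of all 13463 tested genes on a log axis (bottom). Klrc1 at 2.91 and Nkg7 at -2.30 lie farthest out among the members, and Klrb1f spans 0.

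Fcer1g encodes the Fc receptor gamma chain, an adaptor shared by myeloid cells, mast cells and NK cells. Its counts were 92, 98 and 20 in ctrl-Treg and 25, 31 and 15 in Sora-Treg libraries. Control replicate 3 fell inside the Sora-Treg range, and the other controls stood well above it, 4.02-fold higher than replicate 3 on average. Means were 1.885 ± 1.105 CPM and 0.739 ± 0.285 CPM (SD, n = 3), with a log2 fold change of -1.37 ± 0.41 (SE). With control replicates 1 and 2 left out together, a choice made after seeing the data, the value turned to 0.23, the remaining control being assumed to vary like the other libraries. Leaving out control replicate 2 alone gave -1.03, which was no longer called. The lower Fcer1g level in Sora-Treg cells thus rested on 2 control libraries.

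Those same libraries were high in myeloid marker genes. Of 10 myeloid markers, 8 were over 2-fold higher in each of control replicates 1 and 2 than in control replicate 3, the exceptions being Cd68 and Ctss. Lyz2, the lysozyme of macrophages and neutrophils, was at 47.5, 47.9 and 12.6 CPM in ctrl-Treg and 5.64, 21.2 and 4.66 CPM in Sora-Treg libraries. Csf1r, the receptor for the macrophage growth factor, was at 5.31, 4.62 and 0.783 CPM against 1.05, 1.44 and 0.899 CPM. The 10 markers summed to 209, 217 and 131 CPM in ctrl-Treg and 122, 155 and 121 CPM in Sora-Treg libraries. Much of each sum was Ctss, at 97.6 to 111 CPM throughout, so the sums understate the spread of the other markers. Of 7 mast cell and basophil markers only Fcer1a and Mcpt4 were in the table, and together they reached at most 0.102 CPM. Nearest to Fcer1g by profile were Clec4a1 (root mean square difference 0.122), Gpnmb (0.140) and Tnfaip2 (0.184). The part of myeloid cells in the Fcer1g values was not tested.

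**Figure D4:**
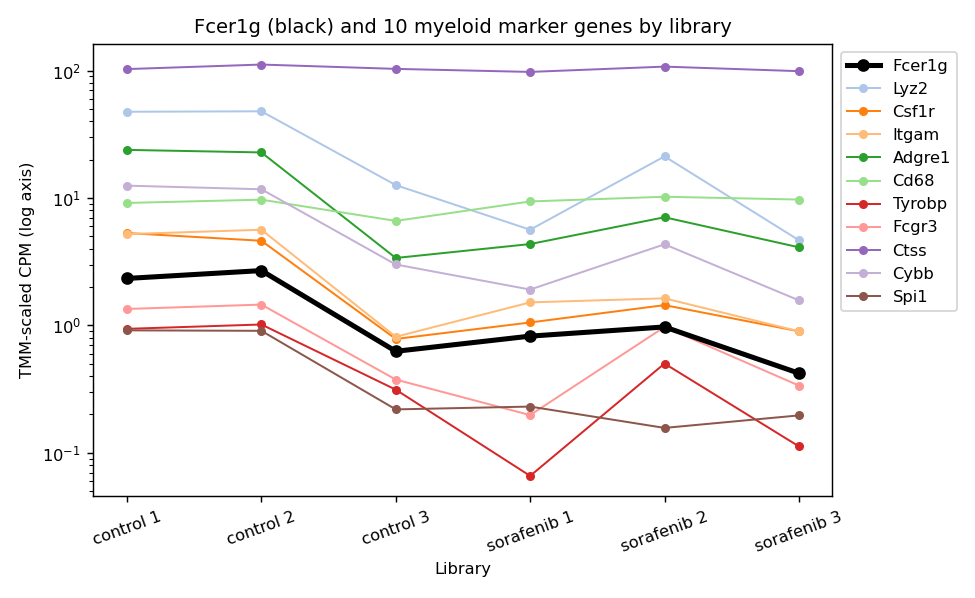
TMM-scaled CPM on a log axis of Fcer1g (black) and 10 myeloid marker genes (colored) in each library. Fcer1g and 8 of the markers are highest in control replicates 1 and 2, at 2.34 and 2.69 CPM for Fcer1g against 0.626 CPM in control replicate 3.

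Levels between genes were compared per length, as mean FPKM. In ctrl-Treg cells Nkg7 led at 33.6 ± 2.2, followed by Fcer1g at 2.98 ± 1.75, Klrd1 at 0.957 ± 0.10, Cd160 at 0.483, Klrg1 at 0.462 and Klrc1 at 0.377 ± 0.033 (SD, n = 3). Klrc2, Klrb1f, Klrk1 and Klrb1c were at 0.151 or below. Neighbours whose library values overlapped were Fcer1g and Klrd1, Cd160 and Klrg1, Klrg1 and Klrc1, Klrc2 and Klrb1f, and Klrk1 and Klrb1c. In Sora-Treg cells Nkg7 still led, at 6.33 ± 0.80, but Klrd1 at 2.71 ± 0.47 and Klrc1 at 2.62 ± 0.48 came next with overlapping values (SD, n = 3). Fcer1g at 1.08, Klrg1 at 0.887, Klrc2 at 0.530 and Cd160 at 0.252 followed, and within these 4 each overlapped its neighbour in this order. Klrb1f and Klrk1 overlapped at 0.0792 and 0.0467, and Klrb1c was listed at 0.

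Genes that work with these receptors, or belong to related killer, effector and Treg programs, were examined as lists, without the members, in the same fit. Of 124 such genes in the table, 99 were tested, of which 55 rose, 27 fell and 17 were not called, with a median log2 fold change of 0.23 against -0.0035 over all tested genes. Over all tested genes 29.7% were called higher and 29.9% lower, the shares beside which the counts of each list stand. DEGs numbered 23 higher and 8 lower, where 6.3% of all tested genes were DEGs higher and 4.97% DEGs lower. The lists were written with earlier results of these data known, so their counts carry no test.

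Other killer lectin-like and related C-type lectin-like genes were mostly below the filter. Of 21 in the table, 16 failed the filter, none with more than 7 counts in a library, and of the 5 tested 3 rose, 1 fell and 1 was not called. Besides Klrc3, Klrg2, a relative of Klrg1 named after its values had been seen, had 5, 14 and 12 counts in ctrl-Treg and 25, 33 and 48 in Sora-Treg libraries (log2 fold change 1.87 ± 0.43, SE, edgeR adjusted p = 7.45e-04). Cd69, an early activation marker, rose by 0.18 ± 0.03 on the log2 scale (SE, with an edgeR adjusted p = 6.21e-05), a call lost when libraries were scaled by their totals alone. Clec2i fell by 0.16 ± 0.05 (SE, edgeR adjusted p = 0.0127), which was not called without control replicate 2 (-0.12), Sora-Treg replicate 1 (-0.13) or Sora-Treg replicate 3 (-0.11).

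Among adaptors and signaling genes all 20 were tested, and 10 rose, 8 fell and 2 were not called, with a median log2 fold change of 0.16. Hcst (DAP10), the adaptor of NKG2D, rose by 0.49 ± 0.11 (SE, edgeR adjusted p = 6.81e-04). Cd247, the CD3 zeta chain, rose by 0.36 ± 0.03 (SE, edgeR adjusted p = 5.68e-10), and Pik3r1, a PI3K regulatory subunit, by 0.53 ± 0.03 (SE). Tyrobp (DAP12), the adaptor of NKG2C, had 37, 37 and 10 counts in ctrl-Treg and 2, 16 and 4 counts in Sora-Treg libraries, for a fitted log2 fold change of -1.75 ± 0.57 (SE, with an edgeR adjusted p = 0.0119). Its call was lost without control replicate 1 (-1.56), control replicate 2 (-1.48), Sora-Treg replicate 1 (-1.34) or Sora-Treg replicate 3 (-1.40), and the value was -0.46 without both of those controls. Tyrobp was also 1 of the 8 myeloid markers high in control replicates 1 and 2. Vav3, a signaling protein of the Vav family, fell by 1.18 ± 0.10 and Lcp2 (SLP-76) by 0.87 ± 0.03 on the log2 scale (SE).

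Ligands of the receptors could be tested for 6 of 12 genes in the table, of which 1 rose, 3 fell and 2 were not called. H2-T23, the ligand gene for CD94 with NKG2A or NKG2C, rose by 0.24 ± 0.03 (SE, edgeR adjusted p = 2.20e-07), from 279 ± 6 CPM to 329.8 ± 9.6 CPM (SD, n = 3). Ulbp1, a ligand of NKG2D, fell from 9.64 ± 0.27 CPM to 4.83 ± 0.69 CPM (SD, n = 3; log2 fold change -0.995 ± 0.120, SE, edgeR adjusted p = 2.09e-07). Tnfrsf14, the ligand of Cd160, fell by 0.17 ± 0.04 (SE, edgeR adjusted p = 0.00141). Clec2d, a ligand of NKR-P1 receptors, was at 0.13 ± 0.06 on the log2 scale (SE, with an edgeR adjusted p = 0.0528), and was called under 6 of 19 alternatives, among them RLE scaling (0.14), the replicate number as a block (0.13), and leaving out control replicate 2 (0.17) or Sora-Treg replicate 1 (0.16). Cdh1 (E-cadherin), the ligand of Klrg1, was below the filter, with 17 counts over the ctrl-Treg and 34 over the Sora-Treg libraries.

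Of 19 granule genes tested, 13 rose, 3 fell and 3 were not called, where 29.7% of all tested genes were called higher and 29.9% lower, with a median log2 fold change of 0.36. Gzma had 5, 5 and 6 counts in ctrl-Treg and 1811, 1937 and 2146 counts in Sora-Treg libraries. The log2 fold changes were 8.63 ± 0.12 for Gzma, 5.14 ± 0.04 for Gzmb, 3.15 ± 0.20 for Prf1 (perforin), 3.04 ± 0.14 for Fasl and 1.27 ± 0.04 for Ctsw (SE). The edgeR adjusted p of these 5 genes was at most 5.71e-12. The 3 that fell were Serpinb9, Rab27a and Lamp1. Serpinb9 went from 26.1 ± 2.0 CPM to 11.5 ± 1.1 CPM (SD, n = 3). Rab27a was at -0.49 ± 0.04 (SE, edgeR adjusted p = 1.42e-10) and Lamp1 at -0.08 ± 0.03 (SE, edgeR adjusted p = 0.0389).

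Transcription factors of killer and effector programs were tested for 20 genes, of which 10 rose, 6 fell and 4 were not called. Eomes rose by 1.03 ± 0.17 (SE, edgeR adjusted p = 2.02e-05), Prdm1 (Blimp-1) by 1.39 ± 0.10, Nfil3 by 1.74 ± 0.04 and Maf by 1.87 ± 0.06 (SE). Id3 fell by 1.69 ± 0.11 and Tcf7, a factor of naive and memory T cells, by 1.24 ± 0.03 (SE). Tbx21 (T-bet) was at -0.52 ± 0.23 (SE, with an edgeR adjusted p = 0.0586), and was called under 6 of 19 alternatives, among them library-total scaling (-0.63), upper quartile scaling (-0.55) and limma on FPKM.

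Other receptors shared by NK and T cells were tested for 18 genes, of which 10 rose, 4 fell and 4 were not called. Slamf7 rose by 3.36 ± 0.07, Lilrb4a by 2.42 ± 0.05 and Il12rb2 by 2.24 ± 0.05, and Slamf6 fell by 1.94 ± 0.06 and Btla by 1.11 ± 0.05 (SE). Of 18 genes known in Klrg1+ effector and tissue Treg cells, 10 rose, 4 fell and 4 were not called. Il10 rose by 3.07 ± 0.10, Tnfrsf9 (4-1BB) by 2.24 ± 0.02, Icos by 1.61 ± 0.03 and Ctla4 by 1.53 ± 0.03 (SE). The list did not move 1 way, with 5 DEGs higher and 1 lower, beside 6.3% and 4.97% of all tested genes. Its log2 fold changes reached down to -1.79, and their median was 0.18.

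**Figure D5:**
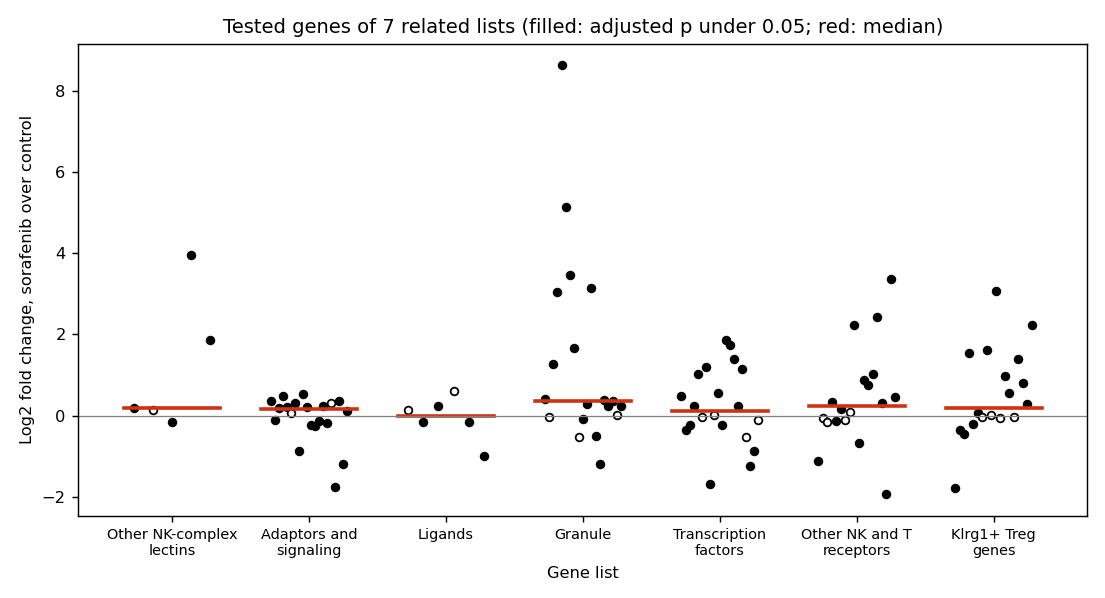
Log2 fold change, Sora-Treg over ctrl-Treg, of the tested genes of 7 lists (each point 1 gene; filled, adjusted p under 0.05; red line, median of the list). Medians lie between -0.01 for the ligands and 0.36 for the granule genes, and Gzma stands at 8.63.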

How the data were processed

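The deposited tables hold raw counts for 22939 gene symbols in 3 ctrl-Treg and 3 Sora-Treg libraries, and FPKM values that the authors made for the same genes. The latter are the counts over a fixed gene length and library total (largest relative difference 1.64e-06), and so are no separate measurement. The study's methods name Bowtie2 and GRCm38, whereas the submitters' processing notes name fastp, HISAT2, HTSeq, DESeq2 and GRCm39. Strand and the handling of shared reads are not given in the sources used here, so close relatives and overlapping genes are uncertain.

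Counts were fitted in R 4.3.3 with edgeR 4.0.16 (quasi-likelihood test), TMM scaling, filterByExpr (13463 genes), no covariate and Benjamini-Hochberg adjustment. The biological coefficient of variation was 4.29%. SEs are those the F statistic implies. Alternatives were DESeq2 1.42.0, limma 3.58.1 on log2(FPKM + 1) or log2(FPKM + 0.1), other scalings and filters, a robust fit, a block on the replicate number, and each library left out. Leaving out control replicates 1 and 2 together and summing NKG2 counts were added after seeing the data. So was the Klrc2 fold without Sora-Treg replicate 1.

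Members, lists and marker genes were chosen with earlier results of these data known. Named were all members, up to 5 called genes per list with the largest change at a mean log2 CPM of at least 1, direct adaptors, ligands and 3 factors (Tbx21, Eomes and Prdm1), and the 3 nearest profiles to the 2 members highest in FPKM. Other names were chosen after their values were seen. RefSeq gave promoters for 8 of the 10 members, and 97.5% of symbols matched. Klrd1 and Klrg1 had no promoter entry. Coordinates printed are those of the RefSeq windows on GRCm38.p6. A few genes are not reported here.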

Additional observations from a re-analysis of the deposited data

How the results depend on the processing

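Of the 7 fitted members, Klrc1, Klrd1 and Nkg7 kept their direction and call under all 19 alternatives that were run, 17 planned and 2 chosen after seeing the data. Of 39 other named genes followed through the alternatives, 30 did so. Further named genes, among them Klrc3, Klrg2, Cd8a, Serpinb9, Rab27a and Lamp1, were not followed. Klrb1f, which was not called, reversed to 0.24 without control replicate 1, within a range of -0.39 to 0.24 over the libraries left out in turn. With control replicates 1 and 2 left out together, Fcer1g reversed to 0.23, Clec4a1 to 0.36 and Gpnmb to 0.11, and the members called lower went from 3 to 1 (Nkg7). That count was also 1 with a CPM of at least 1 required in 3 samples, because Cd160 and Fcer1g were then not tested. Klrg1 lost its call also on the log2(FPKM + 1) scale in limma when no filter was applied (0.37), and Fcer1g was not called by limma on any FPKM scale (-1.22 to -0.84). Without control replicates 1 and 2, Cd160 (-0.82), Cd69 (0.11), Clec2i (-0.17), Tnfrsf14 (-0.15) and Tnfaip2 (-0.14) also lost their calls.

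On the log2(FPKM + 1) scale, which understates changes of low genes, limma gave 275 DEGs higher and 189 lower (without a filter 274 and 185, with 2577 genes called higher). Same-numbered libraries did not deviate together (correlations -0.0438, 0.0591 and 0.0299). A small effect shared by such libraries could go unseen, so pairing by number was neither shown nor excluded. With the replicate number as a block, 4057 genes were called higher and 4064 lower, with 850 and 673 DEGs, and 2 members were called lower (Cd160 was not), while Clec2d was called (0.13). Depth limits Klrc2, Klrk1 and Klrb1c, which were below the filter on low counts.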

Other observations

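The spread of counts between the 3 libraries of a group was compared with counting error as chi-square per degree of freedom. Between pairs of libraries, pooled over genes above a low count limit, it stood at 3.36 to 5.91. That pooled value includes high genes and uses library totals without TMM scaling, so it is no yardstick for the low members. Fcer1g in ctrl-Treg cells stood at 21.0, Klrc2 in Sora-Treg cells at 8.85, Klrc1 in Sora-Treg cells at 6.49 and Klrg1 in ctrl-Treg cells at 5.62. Klrc1 in ctrl-Treg cells was at 0.228 and Klrd1 at 0.427.

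Cd160 held a T-box and a RUNX motif at both of its listed starts, and RUNX TGTGGTT occurs in 5.27% of promoters. Klrk1 held 1 RUNX and 1 AP-1 motif. Klrb1c, Klrb1f and Fcer1g held none of the 4 motifs in these windows.

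Of 6 gamma-delta T cell markers only Sox13 was in the table, at no more than 0.219 CPM in any library.

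Clec4a1, nearest to Fcer1g in profile, fell in Sora-Treg cells, but its call was lost without control replicate 1 (log2 fold change -1.03), control replicate 2 (-1.12) or Sora-Treg replicate 3 (-1.03).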
